A study of Bos taurus with 15 samples.

Results

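Mitochondria carry their own ribosomes, which translate the few proteins encoded by the mitochondrial genome, all of them parts of the respiratory chain and ATP synthase. Every protein of these mitoribosomes is encoded in the nucleus, made in the cytosol and imported, and assembled on mitochondrial rRNA into a large subunit, which joins amino acids, and a small subunit, which reads the mRNA. Some of these proteins descend from bacterial ribosomal proteins and others are found in mitochondrial ribosomes alone. Oocytes hold a very large stock of mitochondria and live on stored transcripts at the end of their growth, so a transcript level there describes a store.

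The genes described are those whose symbol in the deposited table begins with MRPL or MRPS followed by a digit, for the large and the small mitoribosomal subunit. The rule found 71 genes of 24616, of which 45 belong to the large and 26 to the small subunit by name. They carry 70 different symbols, because MRPL33 appears on chromosomes 13 and 14, and lie on 27 chromosomes. RefSeq's cattle annotation (ARS-UCD2.0) lists 78 symbols of this form, and all 70 symbols of the table are among them.

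The 15 libraries came from bovine (Bos taurus) oocytes matured in vitro and freed of cumulus cells, with 3 libraries in each of 5 groups. Oocytes were vitrified, that is cooled to a glass without ice, in liquid helium with 5.6 M or 6.6 M cryoprotective agent or in liquid nitrogen with 5.6 M or 6.6 M of it, or were left fresh. The series calls its oocytes immature, whereas the sample labels describe maturation in vitro. The labels give neither strain nor age of the animals, and nothing in them says that the libraries of a group came from different animals, so p-values measure the spread between these libraries.

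Library totals set the precision and moved with the coolant. The 6 helium libraries and nitrogen 6.6 M library 3 held 6346848 to 8569618 counts, while the other 5 nitrogen and the 3 fresh libraries held 1601519 to 2822837, so depth and coolant can hardly be told apart. All 11 oocyte markers in the table were detected in every library. Of 18 cumulus and granulosa markers, 8 to 16 were detected per library, and FOXL2 and FSHR were at 0 in all. STAR had 140 to 283 CPM (a count as its share of the library) and HAS2 83.5 to 126 CPM. Whether these came from follicle cells was not tested. Helium 6.6 M library 2 stood apart: its 18 cumulus and granulosa markers summed to 558 CPM, against 278 to 437 CPM in the other 14 libraries, and TIMP1 alone reached 130 CPM there. The same library held the highest level of 25 of the 71 mitoribosomal genes, and the part of its other markers in this was not tested.

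Transcript levels of mitoribosomal proteins spanned 3 orders of size within the same oocytes. MRPL20, the homologue of a bacterial protein that binds the large rRNA early in assembly, was the most abundant at a mean of 1438 FPKM (a fragment count divided by gene length and sequencing depth). It lies on chromosome 16 at 52383424 to 52386462 (UMD3.1, as are all positions here), and its mean level exceeded that of 99.3% of tested genes. Next came MRPS16 of the small subunit at 596 FPKM, MRPL18 at 546 FPKM, MRPL47 at 527 FPKM and MRPL32 at 480 FPKM. MRPL18 belongs to the central protuberance, MRPL47 lies near the exit of the peptide tunnel, and MRPL32 is trimmed by a protease of the inner membrane before it is built in. The top 10 were completed by MRPS31 at 418 FPKM, MRPL39 at 339 FPKM, MRPS18C at 327 FPKM, MRPL42 at 241 FPKM and MRPL13 at 237 FPKM. MRPS31, MRPL39 and MRPL42 belong to mitochondrial ribosomes and not to bacterial ones.

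At the other end, the lowest means were those of MRPS34 at 1.06 FPKM, MRPL28 at 1.40 FPKM, MRPL24 at 1.49 FPKM, MRPL57 at 1.72 FPKM and MRPS2 at 1.91 FPKM. The mean of MRPL20 was 1354 times that of MRPS34. In all, 17 genes averaged 100 FPKM or more and 12 averaged under 5 FPKM, although a mitoribosome holds these proteins side by side. The median gene averaged 20.6 FPKM, against 11.8 FPKM for the median tested gene. By subunit, the medians were 16.0 FPKM for the large and 25.7 FPKM for the small one.

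The order of levels was close to the same in every library, with Spearman's rho over the 71 genes between 0.918 and 0.992 in the 105 pairs of libraries. This is a description across genes, which share gene lengths and the preparation method in all libraries. Counts were found in every library for 65 genes. The 5 genes MRPS12, MRPL57, MRPL24, MRPL28 and MRPS34 had 0 to 29 counts per library and did not pass the filter on low counts, which left 66 for tests. MRPS12, whose bacterial counterpart sits in the decoding centre, had 14 to 19 counts in the helium libraries, 0 to 6 counts in the nitrogen libraries and 0 to 3 counts in the fresh libraries, before any scaling for depth.

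**Figure D1:**
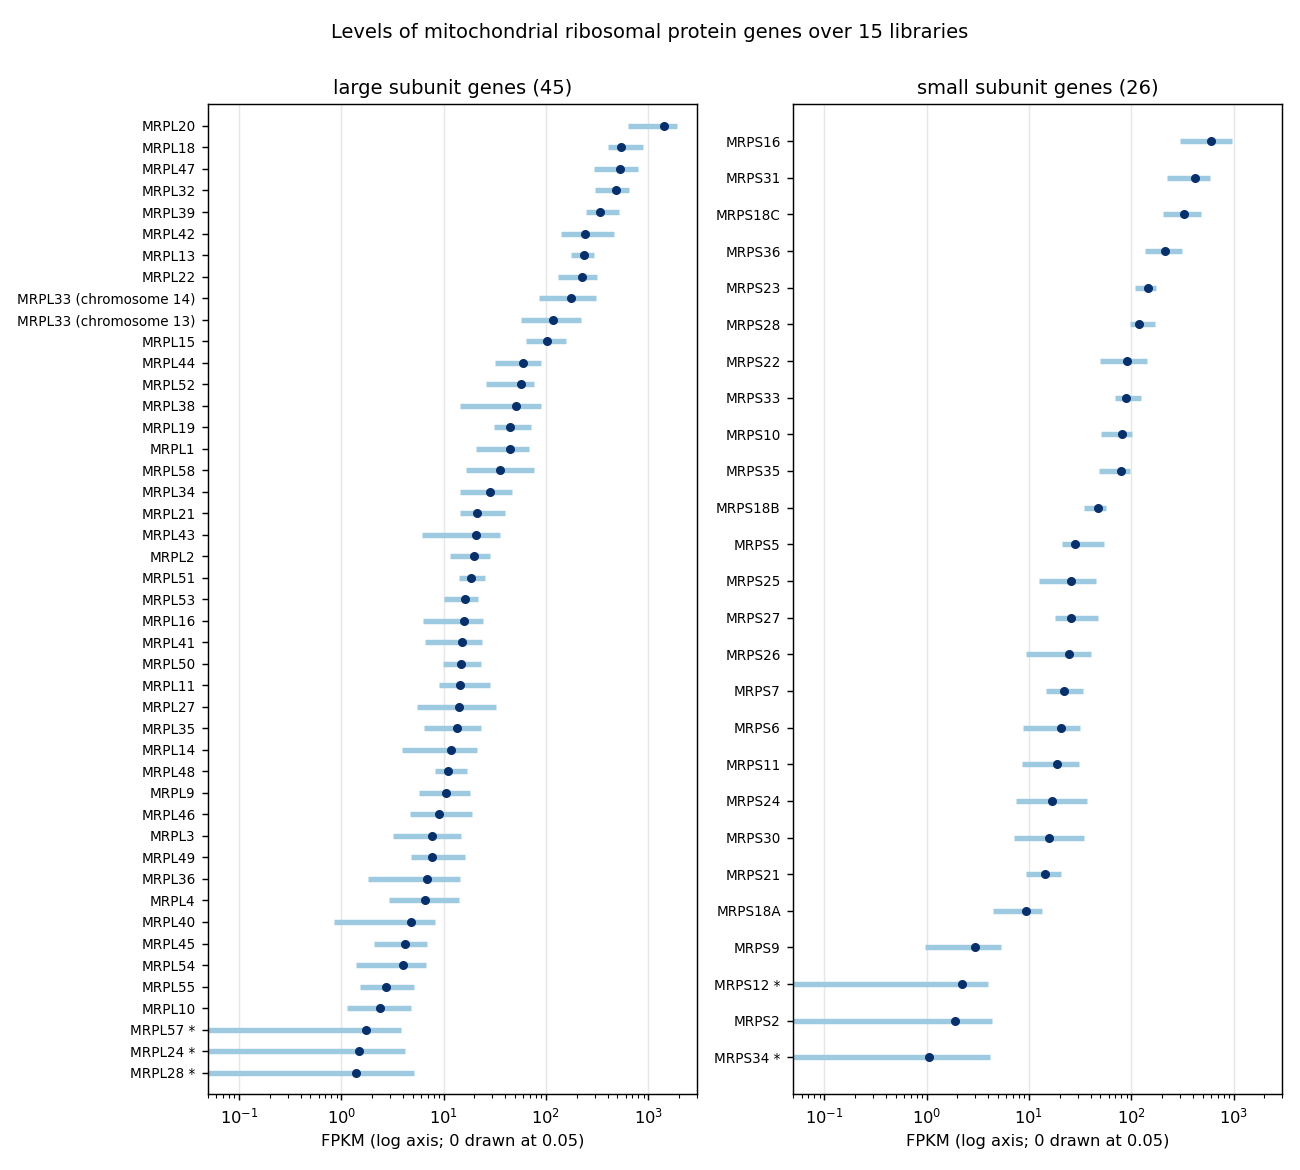
Level of each mitochondrial ribosomal protein gene in FPKM on a log axis, large subunit left and small subunit right; the dot is the mean of 15 libraries, the bar runs over the range, and an asterisk marks the 5 genes that did not pass the filter on low counts. MRPL20 stands at the top with 1438 FPKM and MRPS34 at the bottom with 1.06 FPKM.

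Further members with known particular roles lay between these ends. MRPS36, since identified as a subunit of the 2-oxoglutarate dehydrogenase complex, averaged 212 FPKM. MRPS22, a small subunit protein found only in mitochondria and mutated in human mitochondrial disease and ovarian failure, averaged 90.6 FPKM. MRPL44, which has the fold of an RNase III, averaged 59.1 FPKM, and MRPL58, a peptidyl-tRNA hydrolase that frees stalled mitoribosomes, averaged 35.5 FPKM. MRPS27, a pentatricopeptide repeat protein, averaged 25.6 FPKM and MRPL3, near the catalytic centre, 7.77 FPKM.

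Spread between libraries of a group differed by gene as well. The pooled within-group SD of log2 CPM had a median of 0.35 over the 66 tested genes. MRPS18B varied least, with an SD of 0.13, and MRPL38, of the central protuberance, varied most, with an SD of 0.77. MRPL38 ranged from 20.4 to 113 CPM within the nitrogen 6.6 M group alone. Its log2 difference of 0.65 between helium and nitrogen (SE 0.34) did not pass in edgeR.

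Summed over the 71 genes, mitoribosomal transcripts took a larger share of vitrified than of fresh libraries, while sums scaled between libraries overlapped. The share was 0.576% to 0.809% of counts in vitrified libraries and 0.446% to 0.555% in fresh libraries. With libraries scaled by TMM (the trimmed mean of M-values), the sum averaged 6679 ± 732 CPM in the 12 vitrified libraries and 5189 ± 883 CPM in the 3 fresh libraries (SD). By group it was 6068 ± 242 CPM in helium 5.6 M, 6699 ± 588 CPM in helium 6.6 M, 6817 ± 805 CPM in nitrogen 5.6 M and 7130 ± 1001 CPM in nitrogen 6.6 M (SD, n = 3 each). The lowest vitrified library reached 5891 CPM and the highest 8253 CPM, against 4591, 4773 and 6203 CPM in the fresh libraries, so that fresh library 3 lay within the vitrified range. The sum carries no test. Scaled or not, CPM values are relative to the other counts of a library, so a gene's share and the total RNA of an oocyte cannot be told apart.

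Both subunits had higher sums on average in vitrified libraries, and the large-to-small ratio was similar once MRPL20 was set aside. Large subunit genes summed to 4545 ± 532 CPM in vitrified and 3404 ± 591 CPM in fresh libraries, and small subunit genes to 2134 ± 220 CPM in vitrified and 1785 ± 308 CPM in fresh libraries. The large-to-small ratio of these sums was 2.13 ± 0.12 in vitrified and 1.91 ± 0.15 in fresh libraries. Without MRPL20, which made up 9.96% to 19.2% of all mitoribosomal counts, the ratio was 1.60 ± 0.13 in vitrified and 1.58 ± 0.17 in fresh libraries.

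**Figure D2:**
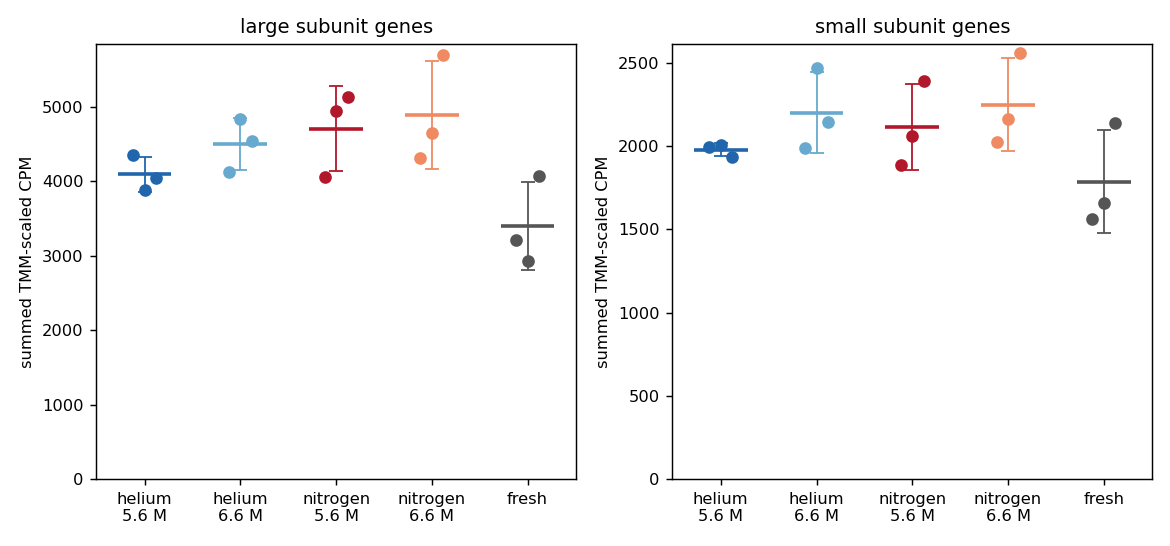
Summed TMM-scaled CPM per library of the large subunit genes (left) and the small subunit genes (right) in the 4 vitrified groups and fresh oocytes; points are libraries, lines the group mean, bars the SD (n = 3), and the vertical axes start at 0. Fresh library 3 lies among the vitrified libraries in both panels, and the other fresh libraries lie below all vitrified ones.

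The first comparison asks how vitrification of any kind changed these transcripts. MRPL20 rose to 1129 ± 149 CPM in vitrified oocytes (SD, n = 12), against 591 ± 123 CPM in fresh oocytes (SD, n = 3). Its values were 1082, 943 and 1072 CPM in helium 5.6 M, 1176, 1229 and 1158 CPM in helium 6.6 M, 858, 1029 and 1401 CPM in nitrogen 5.6 M, 1161, 1126 and 1309 CPM in nitrogen 6.6 M, and 475, 578 and 720 CPM in fresh oocytes. Each of the 12 vitrified libraries exceeded each fresh one. The log2 fold change was 0.93 (SE 0.17), with an adjusted p of 0.0179 in edgeR's quasi-likelihood test over 8441 genes. MRPL20 was the only mitoribosomal gene of 66 that passed the threshold of 0.05 here, and none fell, while 0.509% of all tested genes passed in either direction.

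The call on MRPL20 depended on how the libraries were modelled, although its fold change moved little. In edgeR its adjusted p was 0.117 with a replicate block (log2 fold change 0.91), 0.323 with depth class as a term (0.81) and 0.130 without fresh library 1 (0.79). It was 0.591 in the 8 shallower libraries alone (0.92), where only nitrogen libraries stand against fresh. The term for depth class rests on nitrogen 6.6 M library 3, the only library that differs in depth class from others of its group. Depth and that library's own values therefore cannot be told apart with this term.

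Most other mitoribosomal genes had somewhat higher estimates in vitrified oocytes without passing the test. The log2 fold change was above 0 for 54 of the 66 genes, against 46.5% of all tested genes, and its median was 0.22, against -0.03 over all tested genes. It was above 0 for 34 of 42 large subunit and 20 of 24 small subunit genes, with medians of 0.22 and 0.21. An unadjusted p under 0.05 was reached by 14 genes, all of them higher in vitrified oocytes; among all tested genes, 5.88% were higher and 7.71% lower at that level. With depth class as a term, the median was 0.03 and 35 of 66 genes were above 0. That term rests on nitrogen 6.6 M library 3 alone. Without helium 6.6 M library 2, the median was 0.18 with 52 genes above 0.

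Estimates above 0 prevailed among abundant and scarce members alike when the 71 genes were divided by mean level into 3 tiers. Among the 23 tested genes of the upper tier, 20 were above 0 with a median of 0.22, and in the middle tier 21 of 24 were above 0 with a median of 0.28. In the lower tier 13 of 19 were above 0, with a median of 0.09. Over all tested genes in the same ranges of mean level, 48.8%, 45.9% and 45.9% were above 0.

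MRPS31 and MRPS22, both small subunit proteins particular to mitochondria, came closest after MRPL20. MRPS31 had 537, 576 and 532 CPM in helium 5.6 M, 532, 674 and 571 CPM in helium 6.6 M, 472, 510 and 633 CPM in nitrogen 5.6 M, 546, 588 and 659 CPM in nitrogen 6.6 M, and 308, 435 and 438 CPM in fresh oocytes. Like MRPL20, its vitrified and fresh libraries did not overlap. Only these 2 mitoribosomal genes were higher without overlap, and none was lower without overlap, against 1.32% and 0.711% of all tested genes. The log2 fold change of MRPS31 was 0.53 (SE 0.15), and its adjusted p of 0.122 in edgeR did not pass.

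MRPS22 had 106, 99.8 and 85.3 CPM in helium 5.6 M, 96.2, 119 and 143 CPM in helium 6.6 M, 70.7, 102 and 133 CPM in nitrogen 5.6 M, 105, 124 and 141 CPM in nitrogen 6.6 M, and 59.4, 59.8 and 76.3 CPM in fresh oocytes. All but nitrogen 5.6 M library 1 lay above the fresh libraries. Its log2 fold change was 0.75 (SE 0.19) with an adjusted p of 0.0886 in edgeR. The span of MRPS22 on chromosome 1 (130778634 to 130792040) lies wholly within that of COPB2, a coat protein gene of transport vesicles, and no source says whether reads were counted by strand. COPB2 had a log2 fold change of 0.12 (SE 0.21), with an adjusted p of 0.872 in edgeR, and shared reads would make the level of MRPS22 uncertain.

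**Figure D3:**
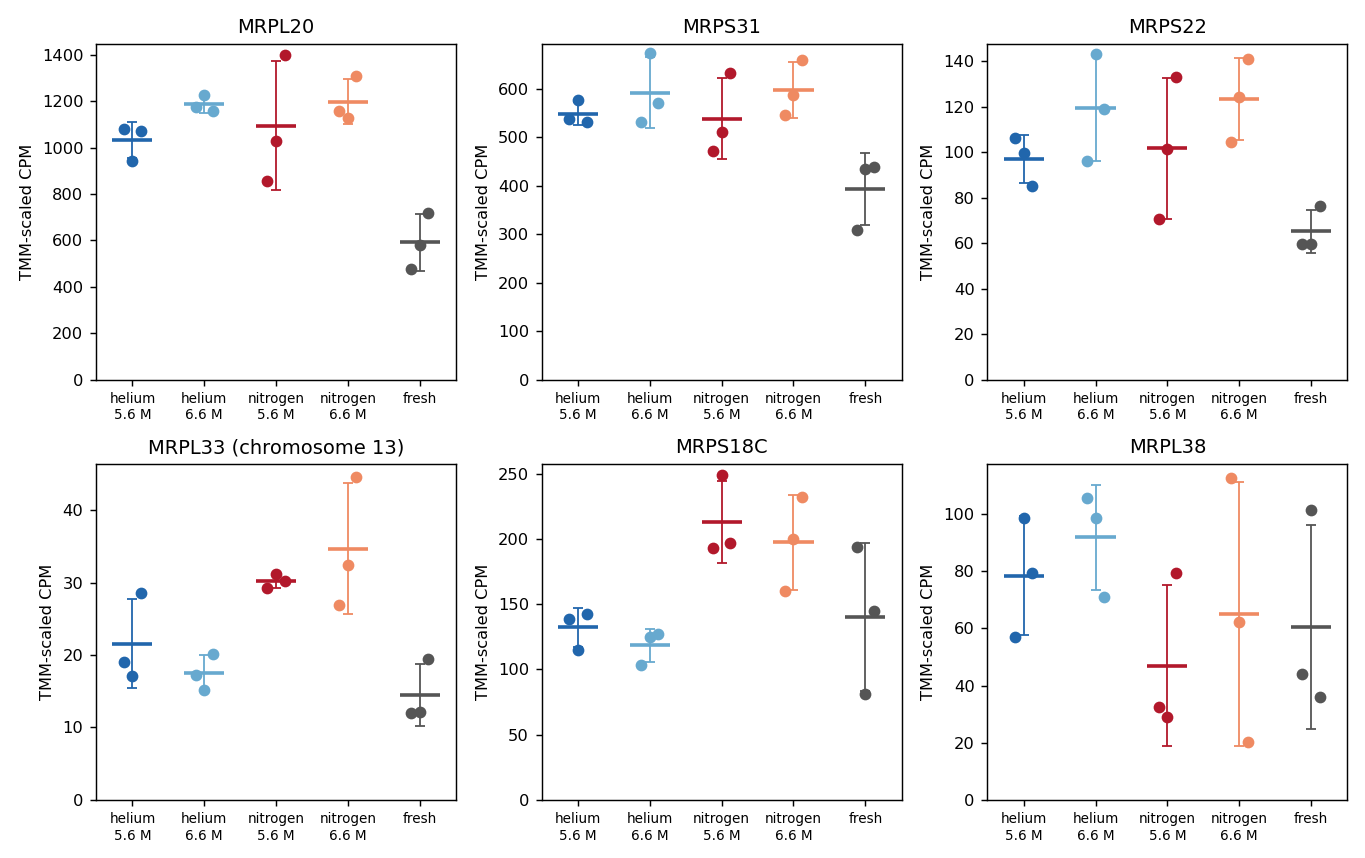
TMM-scaled CPM of 6 mitoribosomal genes in the 4 vitrified groups and fresh oocytes; points are libraries, lines the group mean, bars the SD (n = 3), and each vertical axis starts at 0. The 12 vitrified libraries lie above the fresh ones for MRPL20 and MRPS31, the helium libraries lie below the nitrogen ones for MRPS18C, and MRPL38 scatters within groups.

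The other genes nearest to the threshold were mostly of the large subunit. MRPL33, a small protein with a bacterial counterpart, has 2 entries, on chromosome 13 (2891529 to 2891726) and chromosome 14 (42647473 to 42647670), each over 198 bases. RefSeq's annotation, on another assembly, places MRPL33 on chromosome 11 and on neither of these chromosomes. The length implied by counts and FPKM is 198 bases for both entries, equal to their span, so neither is annotated with an intron. Both may thus be copies of the MRPL33 gene rather than the gene itself, which was not tested. All values are those of the table's entries. Reads of such copies could be divided between them by the counting, so both values are uncertain. The chromosome 13 entry averaged 26.0 ± 8.58 CPM in vitrified and 14.5 ± 4.24 CPM in fresh oocytes, with a log2 fold change of 0.77 (SE 0.24, adjusted p 0.152 in edgeR). The chromosome 14 entry averaged 38.3 ± 9.14 CPM in vitrified and 23.7 ± 9.66 CPM in fresh oocytes, with a log2 fold change of 0.70. Estimates of both entries were thus of similar size, and their fresh and vitrified libraries overlapped.

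MRPL27, whose bacterial counterpart reaches into the peptidyl transferase centre, had the largest estimate of the 66 genes. It averaged 10.7 ± 4.43 CPM in vitrified and 4.59 ± 1.93 CPM in fresh oocytes, a log2 fold change of 1.15 (SE 0.36, adjusted p 0.162 in edgeR). MRPS24, a homologue of the bacterial protein at the mRNA entry, averaged 12.4 ± 4.23 CPM in vitrified and 6.24 ± 2.30 CPM in fresh oocytes, a log2 fold change of 0.94 (SE 0.31, adjusted p 0.181 in edgeR). Both are low genes with few counts in the shallow fresh libraries.

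The log2 fold changes of MRPL43, MRPL58 and MRPL52 were 0.83, 0.74 and 0.59, with adjusted p-values of 0.180, 0.181 and 0.159 in edgeR. MRPL43 averaged 18.2 ± 4.81 CPM in vitrified and 9.81 ± 5.59 CPM in fresh oocytes, with fresh library 2 at 16.1 CPM and the other fresh libraries at 5.34 and 8.01 CPM. Without fresh library 2 it passed, at an adjusted p of 0.0257 in edgeR, and then 2 mitoribosomal genes were called. Over all tested genes, fits that left out 1 library called 3 to 265. MRPL43 overlaps SEMA4G over 5542 bases. MRPL58 averaged 33.6 ± 10.2 CPM in vitrified and 19.7 ± 3.82 CPM in fresh oocytes.

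Genes with lower estimates in vitrified oocytes were few and none reached an unadjusted p under 0.05. MRPL10, which anchors the stalk that recruits translation factors, had a log2 fold change of -0.41, MRPS5 of -0.36, and both MRPL4 and MRPS27 of -0.33. MRPL10 lies wholly within the span of SP2 over 5825 bases, where counts may be shared. The remaining landmark genes had small estimates, namely 0.22 for MRPS16 and for MRPL44, 0.08 for MRPL3 and -0.22 for MRPS36.

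Split by role, each group but the stalk had more tested genes above 0 than below; differences between the groups were not tested. Of large subunit proteins with a bacterial homologue, 21 of 25 tested genes were above 0 with a median log2 fold change of 0.28, and of those particular to mitochondria 15 of 19 with a median of 0.15. In the small subunit these were 11 of 12 with a median of 0.21 and 7 of 9 with a median of 0.21. Subunits in these role groups did not follow the symbol, and some MRPS genes are counted with the large subunit here. By symbol, the split used for all other subunit values, 42 large and 24 small subunit genes were tested. The central protuberance had 6 of 8 tested genes above 0, the decoding and mRNA path 4 of 5, and the nascent chain exit 3 of 3. Both tested genes of the stalk, MRPL10 and MRPL11, were below 0, at -0.41 and -0.07, and did not pass.

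Each vitrified group was then set against the same 3 fresh libraries, so these 4 comparisons share their controls. In helium 5.6 M, 0 of 66 mitoribosomal genes passed in edgeR, against 0.474% of all tested genes, and 8 reached an unadjusted p under 0.05, all higher. Among all tested genes 5.63% were higher and 8.51% lower at that level. The median log2 fold change was 0.10, with 40 of 66 genes above 0, against 50.1% of all tested genes. MRPL20 had 0.80 (SE 0.20, adjusted p 0.0816 in edgeR), MRPL43 had 0.97 and the chromosome 14 entry of MRPL33 had 0.75. DESeq2 called 1 gene and limma 0. Here and below, the share of all tested genes is edgeR's, and counts by DESeq2 and limma cannot be set against it. Libraries did not overlap for 13 genes that were higher, against 9.36% of all tested genes, and for none that was lower, against 8.79%.

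In helium 6.6 M, MRPL20 passed, and the other mitoribosomal genes again lay higher as a set of estimates. MRPL20 averaged 1188 ± 37.1 CPM in helium 6.6 M and 591 ± 123 CPM in fresh oocytes (SD, n = 3 each), a log2 fold change of 1.01 (SE 0.20, adjusted p 0.0307 in edgeR). It was the only 1 of 66 called, against 0.628% of all tested genes. The median log2 fold change was 0.36, with 52 of 66 genes above 0, against 47.7% of all tested genes. At an unadjusted p under 0.05, 13 were higher and 0 lower, against 7.11% and 8.34% of all tested genes. Next came MRPL43 at 1.23, MRPL58 at 1.11 and MRPS24 at 1.36, each with an adjusted p of 0.0773 in edgeR. Libraries did not overlap for 17 genes that were higher, against 8.06% of all tested genes, and for MRPL51, which was lower, against 8.25%.

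Deviations of same-numbered libraries of helium 6.6 M and fresh oocytes correlated weakly (0.147 to 0.306), though no label pairs them. With the replicate number as a block, MRPL20 had a log2 fold change of 1.03 and an adjusted p of 0.0844 in edgeR. Its call was also lost with depth class as a term (adjusted p 0.489) and without any 1 helium 6.6 M library, fresh library 1 or helium 5.6 M library 4 (0.0517 to 0.155). Without fresh library 2, 6 genes were called, namely MRPL20, MRPL52, MRPL43, MRPS31, MRPL14 and MRPL58. Fits that left out 1 library called 3 to 625 of all tested genes here, against 53 in the full fit. Helium 6.6 M library 2, with its follicle cell markers, held 59.9 CPM of MRPL58 and 21.9 CPM of MRPS24, against 33.3 and 35.5 CPM of MRPL58 and 12.9 and 14.5 CPM of MRPS24 in the other libraries of its group. Without that library, the median over the 66 genes was 0.21.

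In nitrogen 5.6 M, 0 of 66 genes passed in edgeR, against 0.0118% of all tested genes, while 10 were higher and 1 lower at an unadjusted p under 0.05, against 3.78% and 2.96% of all tested genes. The median log2 fold change was 0.24, with 51 of 66 genes above 0, against 44.6% of all tested genes. MRPL20 had 0.89 (SE 0.20, adjusted p 0.225 in edgeR), the chromosome 13 entry of MRPL33 had 1.04 and MRPL27 had 1.52. DESeq2 called 1 gene and limma 0, with no share of all tested genes given for either. Libraries did not overlap for 11 genes that were higher, against 5.24% of all tested genes, and for MRPL10, which was lower at -0.96, against 4.03%.

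In nitrogen 6.6 M, 0 of 66 genes passed in edgeR, against 0.0474% of all tested genes, and 13 were higher and 0 lower at an unadjusted p under 0.05, against 4.67% and 3.57% of all tested genes. The median log2 fold change was 0.27, with 51 of 66 genes above 0, against 46.7% of all tested genes. MRPL20 had 1.02 (SE 0.20, adjusted p 0.0709 in edgeR), the chromosome 13 entry of MRPL33 had 1.26 (SE 0.28, adjusted p 0.101 in edgeR) and MRPS22 had 0.92. DESeq2 called 5 genes and limma 2, with no share of all tested genes given for either. Without fresh library 3, edgeR called MRPL20 and the chromosome 13 entry of MRPL33. Over all tested genes, fits that left out 1 library called 1 to 21. Libraries did not overlap for 12 genes that were higher, against 5.27% of all tested genes, and for none that was lower, against 4.04%.

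**Figure D4:**
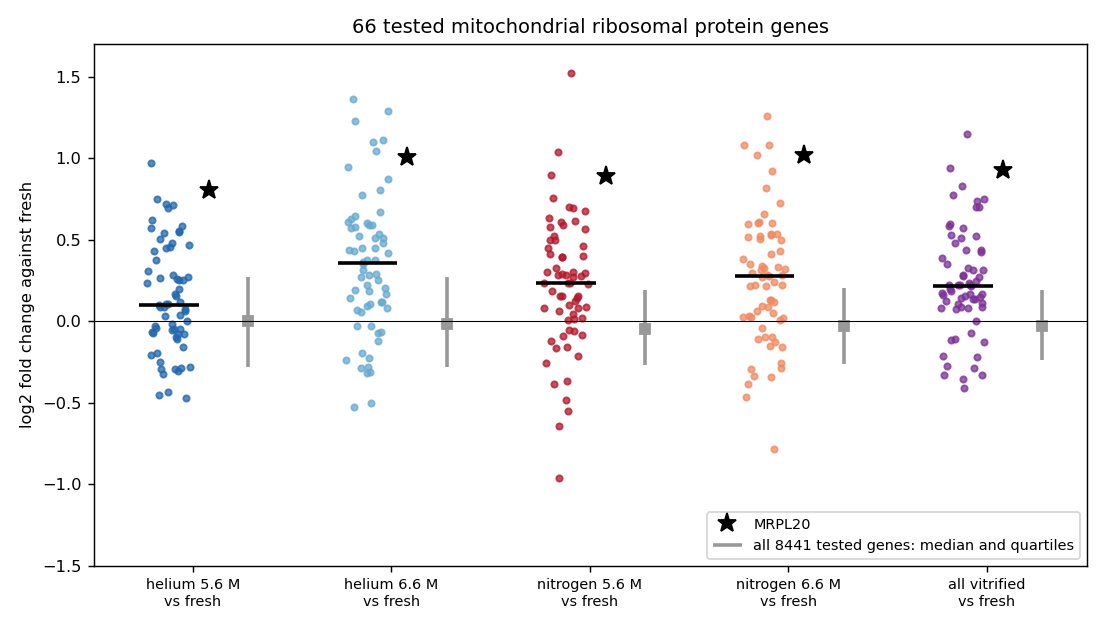
Log2 fold change against fresh of the 66 tested mitoribosomal genes in each vitrified group and in all vitrified libraries together; dots are genes, the star is MRPL20, the black line is the median of the 66 genes, and the grey square and bar are the median and quartiles of all 8441 tested genes. The medians of the 66 genes lie between 0.10 and 0.36 in the single groups, and MRPL20 lies between 0.80 and 1.02.

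Helium was set against nitrogen to ask what the colder coolant changed. No mitoribosomal gene of 66 passed in edgeR, against 0.663% of all tested genes (0.0711% higher and 0.592% lower). At an unadjusted p under 0.05, 6 were higher and 6 lower, against 7.43% and 8.57% of all tested genes. The median log2 difference was -0.01, with 33 genes above and 33 below 0, and 53.4% of all tested genes were above 0. DESeq2 called 3 of these genes as lower in helium and limma called 0, with no share of all tested genes given for either.

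MRPS18C, 1 of a trio of homologues of the same bacterial small subunit protein, differed most clearly by coolant. It had 139, 115 and 143 CPM in helium 5.6 M and 104, 125 and 127 CPM in helium 6.6 M, against 194, 249 and 197 CPM in nitrogen 5.6 M and 160, 200 and 233 CPM in nitrogen 6.6 M. All 6 helium libraries lay below all 6 nitrogen libraries, the only such gene among the 66, against 2.63% of all tested genes; none lay above, against 0.735%. The fresh libraries had 194, 81.4 and 145 CPM, a range that holds all 6 helium libraries, while 4 of the 6 nitrogen libraries lay above it. The log2 difference was -0.72 (SE 0.17), and its adjusted p of 0.0582 in edgeR did not pass. Nitrogen 6.6 M library 3, the only nitrogen library as deep as the helium libraries, had 233 CPM of MRPS18C. The part of depth in this difference was not tested.

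The related MRPS18A and MRPS18B had log2 differences of 0.35 and 0.25, the other way, and did not pass. The chromosome 13 entry of MRPL33 averaged 19.5 ± 4.75 CPM in helium and 32.4 ± 6.26 CPM in nitrogen (SD, n = 6 each), a log2 difference of -0.75 (SE 0.18, adjusted p 0.0607 in edgeR). Its chromosome 14 entry had a difference of only -0.18. MRPL42 had -0.80 (SE 0.24, adjusted p 0.119 in edgeR) and MRPS11 had 0.61 (SE 0.19, adjusted p 0.136 in edgeR). MRPS11 and MRPL46 are neighbours 109 bases apart on chromosome 21, and MRPL46 had a difference of -0.28.

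Calls by coolant changed with single libraries. Without fresh library 2, or without nitrogen 6.6 M library 1, MRPS18C, MRPL42 and the chromosome 13 entry of MRPL33 all passed as lower in helium, with adjusted p-values of 0.00538 to 0.0458 in edgeR. Without fresh library 1, MRPS18C alone passed, and without fresh library 3 or helium 5.6 M library 5, the chromosome 13 entry of MRPL33 alone. The fresh libraries enter these values through the shared estimate of spread. Over all tested genes, fits that left out 1 library called 15 to 248.

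The abundant members leaned to lower values in helium, as abundant genes did in general. Of the 23 tested genes of the upper tier by mean level, 5 were above 0 with a median log2 difference of -0.18, and among all tested genes at or above the lowest level of that tier, 57.2 FPKM, 32.5% were above 0 with a median of -0.12. In the lower tier, 12 of 19 were above 0 with a median of 0.16, and among all tested genes in that range of levels 64.7% were above 0 with a median of 0.11. With depth class as a term, the median over the 66 genes was -0.18, with 22 above 0.

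**Figure D5:**
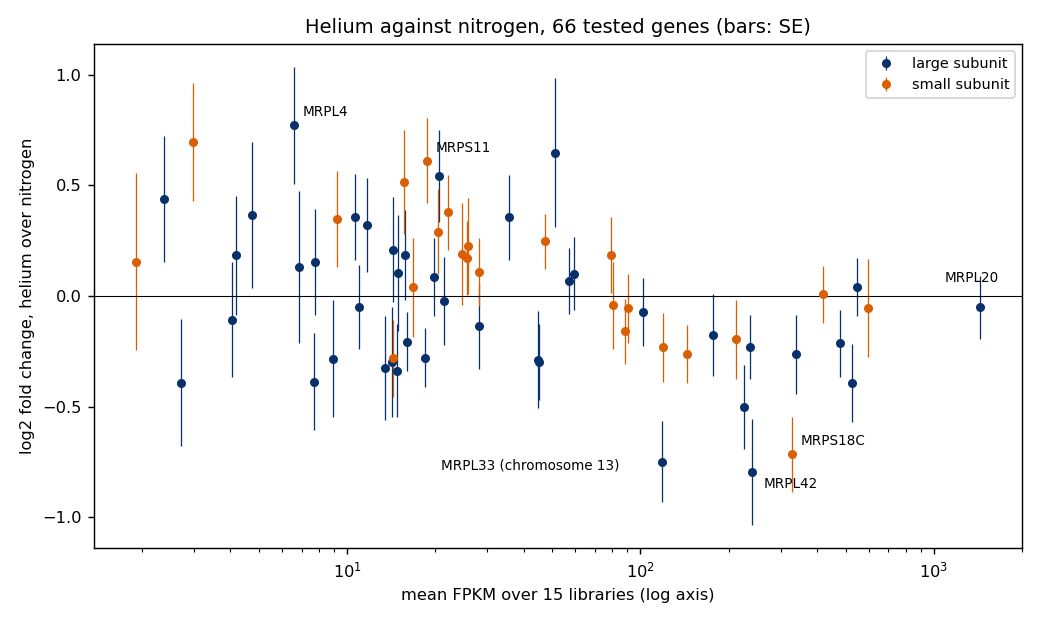
Log2 fold change of helium over nitrogen against mean FPKM over 15 libraries (log axis) for the 66 tested mitoribosomal genes, with SE bars, large subunit in blue and small subunit in orange. MRPL42, the chromosome 13 entry of MRPL33 and MRPS18C have the lowest values, between -0.80 and -0.72, and all average over 100 FPKM.

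The concentration of the cryoprotective agent made no detectable difference. Between 6.6 M and 5.6 M, 0 of 66 mitoribosomal genes passed in edgeR, against 0.0% of all tested genes, and DESeq2 and limma called 0. At an unadjusted p under 0.05, 2 were higher and 0 lower, against 1.28% and 0.96% of all tested genes. The median log2 difference was 0.08, with 47 of 66 genes above 0, against 51.2% of all tested genes. The smallest unadjusted p-values were those of MRPS24 at 0.57 (SE 0.22), MRPL10 at 0.62 (SE 0.29) and MRPL19 at 0.34 (SE 0.17), each with an adjusted p of 1.00 in edgeR. MRPS24 averaged 14.7 ± 4.47 CPM at 6.6 M and 10.00 ± 2.44 CPM at 5.6 M (SD, n = 6 each). No mitoribosomal gene separated the libraries of the 2 concentrations without overlap, against 0.0474% of all tested genes that were higher and 0.0237% that were lower.

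The interaction of coolant and concentration, the concentration effect in helium minus that in nitrogen, was not detectable either. In edgeR 0 of 66 genes passed, against 0.0% of all tested genes, and DESeq2 and limma called 0. No member reached an unadjusted p under 0.05, against 0.829% of all tested genes with higher and 1.27% with lower values. Of the 66 genes 40 were above 0, against 50.0% of all tested genes. The smallest unadjusted p-values were those of MRPL27 at a log2 value of 1.02 (SE 0.50), the chromosome 14 entry of MRPL33 at -0.73 (SE 0.37) and MRPL14 at 0.79 (SE 0.43). These errors are wide, so differences of that size cannot be told from 0 here.

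Genes that work with the mitoribosome were described beside it. A first list, of genes tied to the mitoribosome under other names, held CHCHD1, DAP3, OXA1L, AURKAIP1, PTCD3 and GADD45GIP1. Of these 6 tested genes, 5 were above 0 in vitrified against fresh oocytes with a median of 0.21, and none passed. The small subunit protein DAP3 had 0.49 and the large subunit protein GADD45GIP1 0.48. Of 14 tested translation factors and tRNA enzymes, 8 were above 0 with a median of 0.07 and none passed. MTFMT, which formylates the initiator tRNA, had 0.73 (SE 0.18, adjusted p 0.0715 in edgeR), and MTO1, a tRNA-modifying enzyme, had -1.45 (adjusted p 0.243 in edgeR). Of 17 tested genes for replication, transcription and RNA handling in mitochondria, 8 were above 0 and none passed, with POLG2 at 0.52 and MTERF2 at -0.96.

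Among 17 tested genes listed as assembly factors, 11 were above 0 in vitrified against fresh oocytes with a median of 0.08, and none passed. METTL15, a methyltransferase of the small subunit rRNA, fell in helium 6.6 M against fresh by 1.17 on the log2 scale (SE 0.26, adjusted p 0.0428 in edgeR) and was lower in helium than in nitrogen, at -0.85 (SE 0.18, adjusted p 0.0296 in edgeR). LYRM7, known as an assembly factor of respiratory complex III, was lower in helium than in nitrogen, at -1.14 (SE 0.20, adjusted p 0.00956 in edgeR). The remaining 15 did not pass by coolant. In helium 6.6 M against fresh, the METTL15 call was lost with the replicate block (adjusted p 0.135 in edgeR), with depth class as a term (0.548), and without any 1 library of either helium group, fresh library 1, nitrogen 5.6 M library 1 or nitrogen 6.6 M library 2 (0.0613 to 0.211). By coolant it was lost with the replicate block (adjusted p 0.334 in edgeR) and with depth class as a term (0.480). It was also lost without any 1 helium library, nitrogen 5.6 M library 1 or 3, or nitrogen 6.6 M library 1 (0.0526 to 0.0936). In limma METTL15 passed in neither comparison, with adjusted p-values of 0.131 in helium 6.6 M against fresh and 0.183 by coolant. The LYRM7 call was lost with the replicate block (adjusted p 0.273 in edgeR) and with depth class as a term (0.0810). It held without any 1 library (0.00330 to 0.0460).

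The products' own templates, the 13 protein genes of the mitochondrial genome, had estimates of the opposite sign. All 13 were below 0 in vitrified against fresh oocytes, with a median log2 fold change of -0.77, and ND3 passed at -1.38 (SE 0.24, adjusted p 0.0179 in edgeR). With depth class as a term, 11 of the 13 were below 0 with a median of -0.23 and ND3 did not pass (adjusted p 0.516 in edgeR). Without fresh library 1, the median was -0.29 and ND3 did not pass (adjusted p 0.203 in edgeR). By group, ND3 passed as lower than fresh in helium 5.6 M at -2.04 (adjusted p 0.00900 in edgeR) and helium 6.6 M at -1.99 (0.0144). It was also lower in helium than in nitrogen, at -1.27 (adjusted p 0.0143 in edgeR). None of these passed with the replicate block or with depth class as a term. ND3 had 77.1 to 91.5 CPM in helium, 100 to 260 CPM in nitrogen and 196 to 603 CPM in fresh libraries. Fresh libraries were uneven in the 13 genes, with summed levels of 77407, 22808 and 52197 CPM, against 18683 to 57105 CPM in vitrified libraries. Of 42 tested cytosolic ribosomal protein genes, 16 were above 0 with a median of -0.19, and RPL37A passed as lower at -1.06 (SE 0.22, adjusted p 0.0356 in edgeR). That call was lost with depth class as a term (adjusted p 0.0672 in edgeR) and in 10 of the 15 fits that left out 1 library, fresh library 3 giving the highest adjusted p (0.192); without fresh library 3, the median of the cytosolic genes was -0.05. The difference between mitoribosomal genes and these lists was not tested.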

How the data were processed

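Counts per gene were deposited as whole numbers with no scaling, and FPKM values beside them, per the file headers. In 180473 of 180473 values above 0, the deposited FPKM equalled count over length and library total within 0.1 percent. HISAT2 2.0.4, StringTie 1.3.0 and build UMD3.1 are named in the submitters' processing notes. Strand use and the treatment of reads with several matches are not stated there. Libraries were amplified from single cells with SMARTer and Ovation kits, per the labels' protocols, and no molecular identifiers are mentioned.

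Groups and replicate numbers came from the labels. With edgeR 4.0.16 (R 4.3.3) the 5 groups entered a single robust quasi-likelihood model after filterByExpr, which left 8441 genes, with TMM scaling, Benjamini-Hochberg adjustment over these genes and a threshold of 0.05. It was tested on simulated data. CPM values are TMM-scaled, except marker sums, given as plain CPM. Alternatives were DESeq2 1.42.0 (its size factors and its Wald test), limma 3.58.1 on log2(FPKM + 1), no filter beyond 1 count, a replicate block, a term for libraries above 5000000 counts, and leaving out each library. A fit of the 8 shallower libraries, all of them nitrogen or fresh, was added after seeing the data.

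Same-group libraries differed in their counts beyond sampling noise, so each counted as 1. Deviations from group means correlated at 0.147, 0.306 and 0.227 in the same-numbered pairs of helium 6.6 M and fresh oocytes, all over 0.1. A pairing would rest on this alone, no label states it, and the main fit used none. Other same-numbered pairs ran from -0.355 (helium 6.6 M and nitrogen 5.6 M, library 3) to 0.431 (nitrogen 6.6 M and fresh, library 3). Libraries with different numbers were not correlated for reference. The members and gene lists were chosen with earlier results of these data known. Named genes were those called, those with the smallest p in each comparison (8 against fresh over all vitrified groups, 3 elsewhere), the 10 highest and 5 lowest by mean FPKM, the 9 of 10 landmark symbols found in the table and those that failed the filter; MRPS18A, MRPS18B, MRPL38, MRPL4, MRPL46, MRPS5, MRPL11, MRPL51 and MRPL14 were added after their values were seen where they fall outside this. Role groups followed textbook knowledge of bacterial and mammalian ribosomes.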

Additional observations from a re-analysis of the deposited data

How the results depend on the processing

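Recomputed values of the mitoribosomal genes called or nearest to the threshold in each comparison stayed on their side of it in 737 cases, newly passed in 46 and no longer passed in 11, and none of these changed sign. Most of the 737 were values of genes that had not passed before and still did not. All 11 losses fell on MRPL20, the only member called, so these counts do not show its calls to be stable. Over all tested members, 74 of 1452 recomputed values changed sign for all vitrified against fresh. The mitoribosomal genes called in edgeR were 1 in all vitrified and 1 in helium 6.6 M against fresh, and 0 in the other 6 comparisons. The replicate block gave 0 and 0 for these 2, depth class as a term 0 and 0, no filter 2 and 8, DESeq2's Wald test 3 and 7, and limma 3 and 2. For helium 5.6 M against fresh, no filter and DESeq2 gave 1 each. For nitrogen 5.6 M, DESeq2 gave 1. For nitrogen 6.6 M, no filter gave 4, DESeq2 5 and limma 2. For helium against nitrogen, no filter gave 4 and DESeq2 3. Calls over all genes moved as well, with ranges given below, so these counts say little about the members in particular. The 8 shallower libraries alone, which include no helium library, gave 0 for the mean of both nitrogen groups against fresh. DESeq2's size factors changed no count of these genes. Leaving out 1 library gave 0 to 2 for all vitrified, 0 to 2 for helium 5.6 M, 0 to 6 for helium 6.6 M, 0 to 0 for nitrogen 5.6 M and 0 to 2 for nitrogen 6.6 M against fresh, 0 to 3 for helium against nitrogen, and 0 to 0 for concentration and interaction.

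The median log2 fold change over the members moved with depth class as a term, to 0.026 for all vitrified and 0.14 for helium 6.6 M against fresh and to -0.18 for helium against nitrogen. Leaving out 1 library gave 0.049 to 0.28 for helium 5.6 M against fresh. No label states a pairing, and the main fit took no libraries as paired. For helium 6.6 M against fresh, a pairing was considered from correlations alone, and the replicate block was an alternative fit. Elsewhere the replicate block changed the count of called members for all vitrified against fresh alone. With the block the adjusted p in edgeR was 0.334 for METTL15 and 0.273 for LYRM7 in helium against nitrogen, and 0.123 for ND3 in all vitrified against fresh, where RPL37A did not pass either.

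Counts over all genes moved widely: from 43 to between 1 and 265 for all vitrified, from 40 to between 0 and 471 for helium 5.6 M, from 53 to between 0 and 625 for helium 6.6 M, from 1 to between 1 and 32 for nitrogen 5.6 M, from 4 to between 1 and 69 for nitrogen 6.6 M, and from 56 to between 0 and 344 for helium against nitrogen. Cause was not tested in any of these. The shallow fresh libraries limit genes under a few CPM, and depth cannot be told apart from coolant except through nitrogen 6.6 M library 3.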

Other observations

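In the deposited table, 6 rows carry no symbol but are described as mitochondrial ribosomal proteins (L12, L17, L37, S14, S15 and S17), so the rule on symbols did not take them. They were looked at after the other values had been seen. Of these, 5 were tested, and all 5 were above 0 in vitrified against fresh oocytes, with a median log2 fold change of 0.27. None passed in edgeR. The gene described as S15 had 0.85 (SE 0.30, adjusted p 0.212 in edgeR) and the one described as S17 had 0.38 (adjusted p 0.455 in edgeR).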
